A study of Mus musculus with 10 samples.

Results

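A set of 9 genes of transforming growth factor beta (TGF-beta) signalling was followed in interscapular brown fat (iBAT) of mice with and without an adipocyte deletion of Crls1, the gene of cardiolipin synthase: Tgfb1, Tgfb2, Tgfb3, Inhbb, Thbs1, Tgfbr1, Tgfbr2, Smad3 and Smad7. They were picked by gene symbol, and all 9 of 9 were found among the 15075 genes of the deposited expression table. Libraries came from 5 Control mice, which carry a homozygous floxed Crls1 allele and no Cre (wild-type in the sample labels), and from 5 AdCKO mice, which carry the same floxed allele with Adipoq-Cre, a transgene active in adipocytes. Both groups were of strain C57BL/6, 20 weeks old and kept at room temperature, with polyadenylated RNA from 1 mouse in each library. Because the adiponectin promoter acts in all adipocytes, white fat is also targeted in AdCKO mice, while other cells of the iBAT, such as fibroblasts, macrophages and vessels, are not targeted. In whole tissue, more cells of a type and more RNA per cell cannot be told apart.

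TGF-beta ligands are secreted in a latent form, bound to a propeptide and to matrix proteins, and have to be released before they can bind a receptor. The active ligand binds the type II receptor, which recruits and phosphorylates the type I receptor, and this receptor in turn phosphorylates SMAD2 and SMAD3. With SMAD4 these enter the nucleus and act on target genes, among them collagens and other matrix genes and the inhibitor SMAD7. In adipose tissue the pathway is best known for fibrosis and for restraining adipocyte differentiation.

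Values are normalized reads per kb of counted exon, which allows for the counted length when genes are compared. Comparison between libraries depends on how they are scaled, as given below. The targeted gene, Crls1, lay between 813 and 1291 in Control and between 193 and 249 in AdCKO libraries. After the authors' normalization, totals ran from 7615403 to 8171138 reads in Control and from 5419800 to 5843024 in AdCKO libraries. Of the AdCKO libraries, replicates 1, 2 and 4 stood apart by skeletal muscle markers, whose sum was 6412, 24270 and 9421, against 157 and 144 in the other two and 110 to 139 in Control. A change was called at a limma adjusted p under 0.01 over 11244 genes with a mean of at least 10 in either group. At that threshold 53.6% of the tested genes were called, 25.6% higher and 28.0% lower in AdCKO iBAT.

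Of the 9 genes, 8 reached that mean, and 4 of them rose in AdCKO iBAT, where 25.6% of all tested genes did: Thbs1, Tgfb1, Smad3 and Tgfb3. Tgfbr2 fell (28.0% of all tested genes, and 53.6% were called in either direction), and Tgfbr1, Inhbb and Smad7 were not called. Thbs1 and Inhbb reached the minimum mean only through their AdCKO libraries, so both were tested only because they were higher there. Tgfb2 stayed below it and is given by its values and by the fit without a filter. All 5 AdCKO values lay above all 5 Control values in 5 of the 9 genes and below them in 1, where 24.5% and 26.4% of the tested genes did so (50.9% in either direction). Tgfb2, which was not tested, is among these 5 genes.

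**Figure D1:**
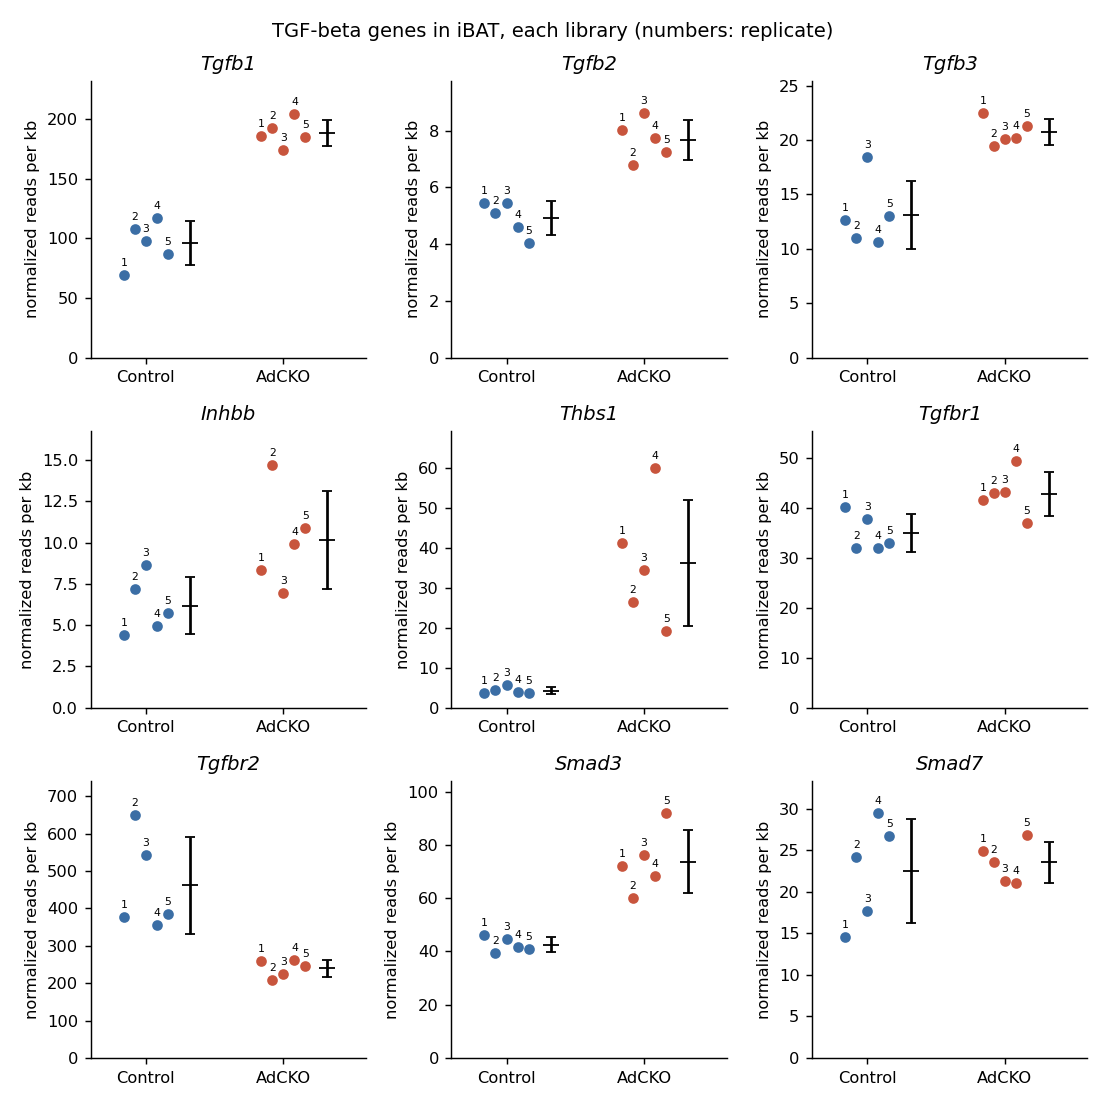
Normalized reads per kb of each of the 9 genes in each library (points, numbered by replicate), with the mean and SD of each group in black (n = 5) and every axis starting at 0. AdCKO points lie above all Control points for Tgfb1, Tgfb2, Tgfb3, Smad3 and Thbs1 and below them for Tgfbr2, and the groups overlap for Inhbb, Tgfbr1 and Smad7.

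The largest difference was in Thbs1 (NM_011580, mm9 chromosome 2, plus strand, 117937658 to 117952869), which encodes thrombospondin 1, a matrix protein that can release TGF-beta from its latent complex. Control libraries 1 to 5 held 3.69, 4.36, 5.72, 3.99 and 3.78 normalized reads per kb, and AdCKO libraries 1 to 5 held 41.1, 26.3, 34.5, 60.0 and 19.1. Even the lowest AdCKO library, replicate 5, was above every Control library. The means were 4.31 ± 0.83 and 36.2 ± 15.7 (SD, n = 5 each), and their ratio was 8.40. On the scale of log2(value + 1), used for every log2 change of a single gene, the difference was 2.72 ± 0.25 (SE; adjusted p in limma = 1.38e-06), and with a pseudocount of 10 it was 1.63. Without the 3 AdCKO libraries high in muscle markers it was 2.34 (limma adjusted p = 1.37e-05). Among AdCKO libraries the spread was wide, with an SD of 43.3% of the mean. The Control mean lay below the minimum of 10, so Thbs1 was tested only because of its AdCKO libraries. Its Control values are low, and their SD and the SE of the change may be too small.

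Stretches of genome just upstream of the transcript start are shown for the 2 members with the largest rise, for Smad3 and for Tgfbr2, the member that fell. They were read from mm9 at the deposited starts, in a window of 250 bases that was cut short for Thbs1 (to 204 bases) where an annotated exon begins, and run 5′ to 3′ on the strand of the gene. Capitals mark matches, on either strand, to GGGCGG (GC box) and CAGAC (SMAD box).
Thbs1, chr2:117937408-117937611, plus strand: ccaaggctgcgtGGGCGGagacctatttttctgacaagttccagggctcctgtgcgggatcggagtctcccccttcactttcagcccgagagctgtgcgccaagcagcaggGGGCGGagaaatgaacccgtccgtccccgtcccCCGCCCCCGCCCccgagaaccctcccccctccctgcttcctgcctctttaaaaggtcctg
Tgfb1, chr7:26471771-26472020, plus strand: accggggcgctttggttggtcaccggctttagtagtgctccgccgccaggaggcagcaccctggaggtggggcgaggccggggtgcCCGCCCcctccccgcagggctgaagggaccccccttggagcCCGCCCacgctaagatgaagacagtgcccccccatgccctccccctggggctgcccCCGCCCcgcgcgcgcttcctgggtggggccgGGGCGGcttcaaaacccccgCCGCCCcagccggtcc
Smad3, chr9:63605802-63606051, minus strand: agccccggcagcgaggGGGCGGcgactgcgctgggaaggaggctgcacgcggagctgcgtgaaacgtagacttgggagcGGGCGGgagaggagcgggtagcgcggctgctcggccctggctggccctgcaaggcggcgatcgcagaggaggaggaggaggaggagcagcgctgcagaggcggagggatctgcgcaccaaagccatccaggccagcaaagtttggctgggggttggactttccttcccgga
Tgfbr2, chr9:116084482-116084731, minus strand: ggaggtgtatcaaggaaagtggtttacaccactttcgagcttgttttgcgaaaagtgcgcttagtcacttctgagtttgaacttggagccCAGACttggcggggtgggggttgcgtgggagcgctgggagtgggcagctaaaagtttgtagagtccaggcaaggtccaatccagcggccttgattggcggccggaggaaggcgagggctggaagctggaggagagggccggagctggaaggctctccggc
Thbs1 held 4 matches to the GC box, 2 of them joined, Tgfb1 held 5 and Smad3 held 2, and in Tgfbr2 the only match was 1 SMAD box. Matches are frequent everywhere: of the 15075 windows of 250 bases upstream of the deposited genes, 56.0% held GGGCGG and 40.5% held CAGAC. The letters TGANTCA (AP-1), TGACGNCA (CRE-like), TGATGNAA (C/EBP-ATF) and GTCTAGAC (palindromic SMAD element), found in 4.62%, 4.27%, 2.03% and 0.212% of windows, were in none of the 4 stretches shown. A match is a string of letters and not a binding site. The GC content of the full windows was 64.4% for Thbs1, 75.2% for Tgfb1, 69.2% for Smad3 and 58.4% for Tgfbr2, against a median of 59.2%.

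Tgfb1 (NM_011577, mm9 chromosome 7, plus strand, 26472021 to 26490015) encodes TGF-beta 1, and it was the most abundant of the 3 TGF-beta genes in every library. It stood at 69.5, 108, 98.0, 117 and 86.9 normalized reads per kb in Control libraries 1 to 5 and at 186, 192, 175, 204 and 185 in AdCKO libraries 1 to 5. No AdCKO library fell near the Control range, and the AdCKO values lay close together. Means were 95.9 ± 18.5 and 188 ± 10.9 (SD, n = 5 each). The change on the log2 scale was 0.99 (0.12 SE, adjusted p in limma 1.57e-05).

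Tgfb3 (NM_009368, mm9 chromosome 12, minus strand, 87397693 to 87419991), the gene of TGF-beta 3, was read at 12.6, 11.003, 18.4, 10.7 and 13.1 in Control libraries and at 22.5, 19.4, 20.1, 20.2 and 21.3 in AdCKO libraries. The groups were separated by a narrow gap, between Control replicate 3 and AdCKO replicate 2. On the log2 scale it rose by 0.64 (0.13 SE, adjusted p in limma 0.000966). It was no longer called with quantile normalization (0.29, limma adjusted p = 0.0461) or without the 3 AdCKO libraries high in muscle markers (0.64, limma adjusted p = 0.0149).

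Tgfb2 (NM_009367, mm9 chromosome 1, minus strand, 188447065 to 188529871), the gene of TGF-beta 2, was the lowest of the 3 TGF-beta genes. Its values were 5.45, 5.09, 5.45, 4.60 and 4.03 in Control and 8.02, 6.79, 8.64, 7.75 and 7.26 in AdCKO libraries. AdCKO libraries were again all above Control libraries, at means of 4.92 ± 0.61 and 7.69 ± 0.71 (SD, n = 5 each). Control genes from 3 to 10 had a median SD of 13% of the mean, close to the 12.9% of those from 10 to 30. Reduced spread was seen in genes below 3. Read counting alone would give more spread at lower levels, so the SD and the SE of Tgfb2 may still be too small. In the fit without a filter on low values it was higher by 0.56 on the log2 scale (0.09 SE, adjusted p in limma 0.000234).

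Summed over the 3 TGF-beta genes, Control libraries held between 87.6 and 132 normalized reads per kb and AdCKO libraries between 203 and 232. Tgfb1 made up 83.8% ± 3.99 of that sum in Control and, among AdCKO libraries, 86.9% ± 1.06 (SD, n = 5 each), and its ranges overlapped, at 79.4% to 88.5% and 85.9% to 88.0%. The ratio of Tgfb2 to Tgfb1 differed by -0.35 on the log2 scale (exact two-sided permutation test, p = 0.0873) and that of Tgfb3 to Tgfb1 by -0.31 (p = 0.19). Adjusted over the 4 ratios tested, these p-values were 0.116 and 0.19. With quantile normalization the differences were -0.82 and -0.73, each with an adjusted p of 0.0106 in the permutation test. A factor common to a library leaves these ratios unchanged, but quantile normalization alters values by more than such a factor.

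Inhbb (NM_008381, mm9 chromosome 1, minus strand, 121312042 to 121318825) encodes the beta B subunit of activin B, a relative of TGF-beta that also signals through SMAD2 and SMAD3. Control libraries held 4.41, 7.16, 8.61, 4.97 and 5.73 normalized reads per kb and AdCKO libraries 8.33, 14.7, 6.96, 9.93 and 10.9. Control replicate 3 lay above AdCKO replicates 1 and 3. The log2 difference of 0.63 (0.20 SE, adjusted p in limma 0.0162) missed the threshold, and it passed without Control replicate 3 (0.74, limma adjusted p = 0.00676) or AdCKO replicate 3 (0.74, limma adjusted p = 0.00748).

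The receptor genes did not move together. Tgfbr2 (NM_009371, mm9 chromosome 9, minus strand, 115996813 to 116084481), the type II receptor that binds the ligand, was the most abundant of the 9 genes in both groups. It was measured at 377, 651, 542, 355 and 384 normalized reads per kb in Control libraries 1 to 5 and at 259, 209, 224, 262 and 245 in AdCKO libraries. Control replicates 2 and 3 were well above the rest, but the lowest Control library also exceeded every AdCKO library. The mean fell from 462 ± 129 to 239.8 ± 22.8 (SD, n = 5 each), a log2 difference of -0.91 (0.16 SE, adjusted p in limma 0.000269). With the same total in every library it was -0.43 (limma adjusted p = 0.0217) and was no longer called. It stayed called without Control replicate 2 (-0.77) and without the 3 AdCKO libraries high in muscle markers (-0.93).

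Tgfbr1 (NM_009370, mm9 chromosome 4, plus strand, 47366177 to 47427796), the type I receptor, stood at 40.1, 31.98, 37.7, 32.02 and 32.9 in Control and 41.5, 42.8, 43.2, 49.4 and 37.0 in AdCKO libraries. AdCKO replicate 5 lay below Control replicates 1 and 3. The log2 difference was 0.28 (0.09 SE, adjusted p in limma 0.0183), not past 0.01. The call hung on single libraries, since it passed without Control replicate 1 (0.33, limma adjusted p = 0.00864) or without AdCKO replicate 5 (0.33, limma adjusted p = 0.00835).

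The ratio of Tgfbr1 to Tgfbr2 within a library does not depend on a factor common to that library. The Control mean was 0.0802 ± 0.0218 and the AdCKO mean 0.179 ± 0.0229 (SD, n = 5 each), with the highest Control value at 0.107 and the lowest AdCKO value at 0.151. The difference on the log2 scale was 1.20 (p = 0.00794 in an exact permutation test, two-sided, with no smaller p possible for 5 mice against 5, and 0.0317 adjusted over the 4 ratios). Tgfbr2 reads were thus still in excess of Tgfbr1 reads per kb in all 10 libraries.

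**Figure D2:**
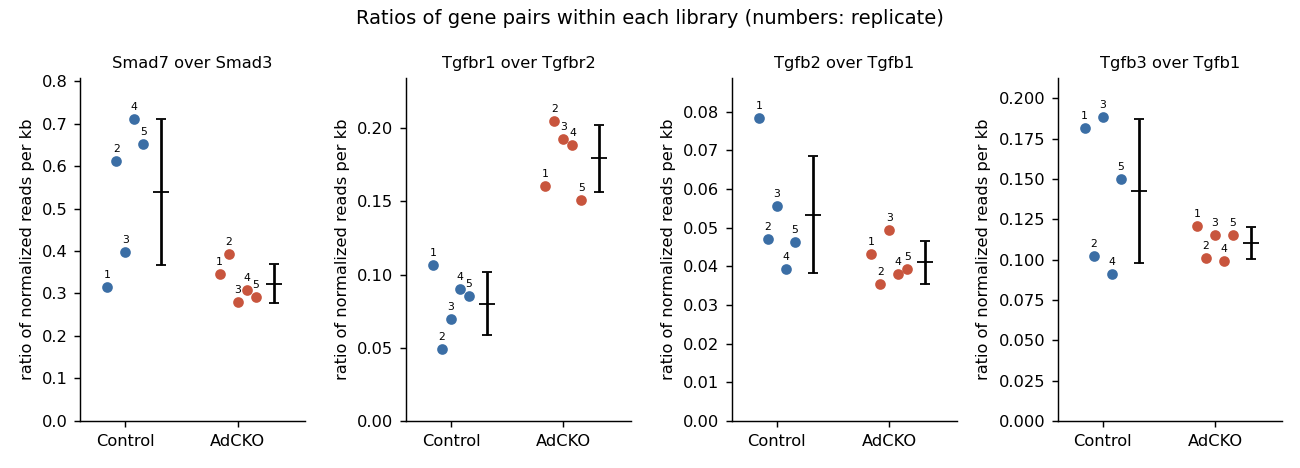
Ratios of normalized reads per kb between 2 genes of the same library, with one point per library (numbered by replicate) and the mean and SD of each group in black (n = 5). Tgfbr1 over Tgfbr2 does not overlap between the groups, while Smad7 over Smad3, Tgfb2 over Tgfb1 and Tgfb3 over Tgfb1 do.

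Smad3 (NM_016769, mm9 chromosome 9, minus strand, 63494574 to 63605801) encodes a receptor-activated SMAD that carries the TGF-beta signal to DNA. Control libraries 1 to 5 held 46.2, 39.4, 44.5, 41.5 and 41.0 normalized reads per kb, and AdCKO libraries held 72.2, 60.1, 76.2, 68.4 and 91.8. Control libraries were close to one another and AdCKO libraries were all higher, replicate 5 most of all. The means were 42.5 ± 2.78 and 73.7 ± 11.7 (SD, n = 5 each), which differ by 0.77 in log2 (0.10 SE, adjusted p in limma 3.2e-05). It was 0.96 without the 3 AdCKO libraries high in muscle markers (limma adjusted p = 6.83e-05).

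Smad7 (NM_001042660, mm9 chromosome 18, plus strand, 75527019 to 75555588) encodes the inhibitory SMAD that blocks the type I receptor and is itself a target of the pathway. It was at 14.6, 24.1, 17.7, 29.5 and 26.8 in Control and 24.9, 23.6, 21.3, 21.1 and 26.8 in AdCKO libraries, so that all AdCKO values fell inside the Control range. The log2 difference of 0.10 (0.17 SE, adjusted p in limma 0.63) was smaller than its error. The sign turned with quantile normalization (-0.19), with array quality weights (-0.014) and without Control replicate 1 (-0.040).

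Relative to Smad3, Smad7 was at 0.538 ± 0.172 in Control and 0.323 ± 0.0459 in AdCKO libraries (SD, n = 5 each). Control replicate 1, at 0.315, lay inside the AdCKO range of 0.279 to 0.393, and Control replicate 3, at 0.398, lay just above it. The log2 difference of -0.68 had an exact permutation p of 0.0317, and 0.0635 adjusted over the 4 ratios. Without Control replicate 1 the difference was -0.85 with an adjusted p of 0.0159.

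Ordered by level in Control iBAT, the genes ran from Tgfbr2 (462) through Tgfb1 (95.9), Smad3 (42.5), Tgfbr1 (34.9), Smad7 (22.5), Tgfb3 (13.2), Inhbb (6.18) and Tgfb2 (4.92) to Thbs1 (4.31 normalized reads per kb). Ranges overlapped between the neighbours Smad3 and Tgfbr1, Smad7 and Tgfb3, Inhbb and Tgfb2, and Tgfb2 and Thbs1. In AdCKO iBAT the order was the same but for Thbs1, which moved from place 9 to place 5, between Tgfbr1 and Smad7, and overlapped with both. There the ranges of Smad7 and Tgfb3 and those of Inhbb and Tgfb2 also overlapped. Tgfbr2 stood above 92.6% of all genes of the table in Control and above 87.2% in AdCKO, and Tgfb1 above 70.3% and 83.7%.

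The values of the 9 genes also depend on how libraries of unequal totals are scaled. When every library was brought to the same total, the median over all genes moved up by 0.47 on the log2 scale, and 7 of the 8 tested members were called higher and 0 lower. Smad7 was then at 0.56 (limma adjusted p = 0.00776). Measured against the median of all genes under that scaling, Thbs1 was at 2.69, Tgfb1 at 1.01, Smad3 at 0.78, Tgfb3 at 0.63, Tgfbr1 at 0.29 and Tgfbr2 at -0.89, within 0.05 of the values under the authors' normalization.

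**Figure D3:**
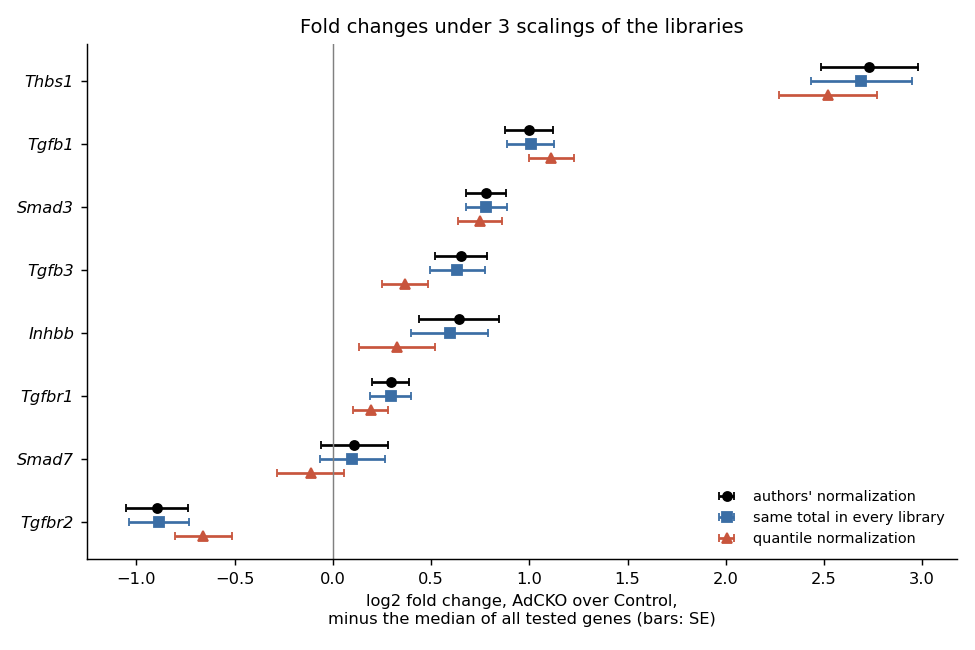
Log2 fold changes (AdCKO over Control, on log2(value + 1)) of the 8 tested genes after subtracting the median of all tested genes, with the authors' normalization, with equal totals for all libraries, and after quantile normalization (bars are SE). Thbs1 lies at 2.73, 2.69 and 2.52 and Tgfbr2 at -0.89, -0.89 and -0.66, while Smad7 lies on either side of 0.

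Genes whose pattern over the 10 libraries lay nearest to that of a member were found by the root mean square difference between log2 values, each centred on its own mean. For Tgfb1 these were Bax (0.08) and Arap2 (0.10), where the spread of Tgfb1 itself on that measure was 0.53. For Thbs1, with a spread of 1.42, they were Plek (0.19) and Basp1 (0.21). Tgfbr2 was nearest to Chadl (0.12) and Rnft2 (0.12), both lower in AdCKO iBAT (log2 fold changes -0.87 and -0.99). Smad3 was nearest to Ptn (0.08) and Irak2 (0.10). For the other 5 members the distances ran from 0.07 to 0.19, with Dip2c nearest to Tgfb2, Mcm4 to Tgfb3, Gclc to Tgfbr1, Fam212a to Smad7 and Abca9 to Inhbb.

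The rest of the pathway was read from 6 lists that hold 121 other genes, of which 78 were tested: 47 were higher, 7 lower and 24 not called, where 25.6% of all tested genes were higher, 28.0% lower and 53.6% called, with a median log2 fold change of 0.48 against -0.01 over all tested genes. Of 28 other ligands of the family, 22 were in the table and 4 were tested, with 3 higher and 1 lower. Without a filter on low values 7 were higher and 2 lower, and with a minimum mean of 1 over all libraries 6 and 2. Gdf15, a stress-induced ligand that signals through another receptor, was at 16.3 ± 1.63 in Control and rose to 785 ± 258 (SD, n = 5 each, in normalized reads per kb; log2 fold change 5.45, limma adjusted p = 1.04e-09), and Gdf10 rose from 22.1 to 89.7 (1.97). Bmp6, a bone morphogenetic protein, fell from 81.9 to 65.0 (-0.33, limma adjusted p = 0.0076), and no gene of the list was called lower without any one of Control replicates 3 and 4 and AdCKO replicates 1, 2 and 4, without the 3 AdCKO libraries high in muscle markers, or with the same total in every library.

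On the list named latent complex and activators, 12 of 16 tested genes were higher and 2 lower, with a median of 0.76. That is 87.5% called, against 53.6% of all tested genes, of which 25.6% were higher and 28.0% lower. Whether each of them holds or releases TGF-beta was not tested. Mmp14, a membrane-anchored matrix protease, rose from 38.4 ± 6.14 to 233.5 ± 35.4 (log2 fold change 2.57, limma adjusted p = 1.63e-08), and Bmp1, a procollagen protease, from 31.0 to 96.9 (1.61). Ltbp2, a matrix protein of the latent TGF-beta binding family, fell from 208.9 ± 24.3 to 37.3 ± 11.5 (-2.50, limma adjusted p = 1.79e-07). Furin, which cuts the TGF-beta propeptide, fell from 284.7 to 156.6 (-0.85, limma adjusted p = 2.65e-06).

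Of 9 tested receptors and coreceptors, 4 were higher, 1 was lower and 4 were not called (median 0.34), so that 55.6% were called, near the 53.6% of all tested genes. Acvr1c, the type I receptor ALK7 of adipocytes, fell from 77.9 ± 6.79 to 40.7 ± 4.04 (log2 fold change -0.92, limma adjusted p = 1.69e-06). Acvrl1 (0.41) and Eng (0.36), both of endothelial cells, rose. The number higher was 2 without the 3 AdCKO libraries high in muscle markers, and also without any one of Control replicates 2, 4 and 5 and AdCKO replicates 2, 3 and 4. Among 9 tested SMADs and partners only Trim33, a ubiquitin ligase that binds SMADs, was called (0.41, limma adjusted p = 0.00244), and with quantile normalization 0 were. Smad2, the other SMAD of this pathway, was at 34.0 in Control and 33.8 in AdCKO iBAT. With the same total in every library all 9 were called higher, at a median of 0.04 relative to all genes.

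Inhibitors and feedback genes gave 7 higher and 1 lower of 13 tested (median 0.50), or 61.5% called against 53.6% of all tested genes, and 13 were higher in the fit without a filter on low values. Tgif1, a corepressor of SMADs, rose from 26.5 ± 3.4 to 130.9 ± 23.3 (log2 fold change 2.25, limma adjusted p = 3.07e-08) and Bgn, a matrix proteoglycan that binds TGF-beta, from 258.6 to 962.6 (1.88). Ppm1a, a phosphatase that acts on SMAD2 and SMAD3, fell from 528.9 to 416.3 (-0.34, limma adjusted p = 0.000338), which was no longer called with quantile normalization, with the same total in every library or without the 3 AdCKO libraries high in muscle markers.

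Of 28 tested profibrotic and target genes, 20 were higher, 3 were lower and 5 were not called, with a median of 1.31. That is 82.1% called, against 53.6% of all tested genes, of which 25.6% were higher and 28.0% lower. The collagen genes Col1a1, from 65.7 ± 8.46 to 683 ± 70.3 (log2 fold change 3.36, limma adjusted p = 4.38e-10), and Col3a1, from 160.9 to 1501 (3.21), had the smallest p of the list. Lox, which crosslinks collagen, was among the lower genes (-0.60, limma adjusted p = 0.00052), as was Ltbp2, which is also on this list. Ctgf, a classical target of TGF-beta named here after its values were seen, rose from 9.64 ± 0.78 to 19.8 ± 3.53 (0.95, limma adjusted p = 3.02e-05). Pmepa1 and Skil, likewise named after values were seen, were not called, on the list of inhibitors and feedback genes (7 of 13 tested higher). Their log2 fold changes were 0.38 (limma adjusted p = 0.363) and -0.11 (limma adjusted p = 0.632). The BMP targets Id1, Id2 and Id3 were not called (-0.39, 0.01 and 0.35).

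**Figure D4:**
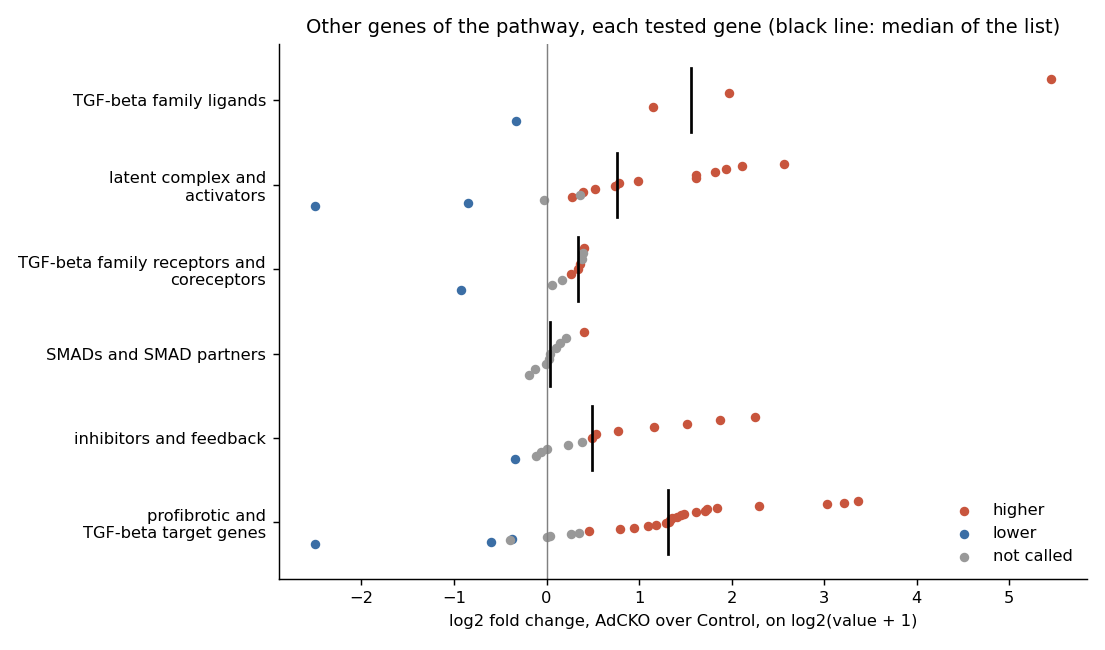
Log2 fold changes (AdCKO over Control, on log2(value + 1)) of every tested gene of the 6 lists, coloured by whether it was called higher, lower or not, with the median of each list as a black line. Medians lie at 1.56 for ligands, 0.76 for latent complex and activators, 0.34 for receptors, 0.03 for SMADs, 0.50 for inhibitors and 1.31 for target genes.

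Markers of cell types were also read, beside the 25.6% of all tested genes that were higher, 28.0% lower and 53.6% called. Of 11 tested fibroblast markers 10 were higher, and their summed level went from 1209 to 1575 in Control libraries to 4939 to 7165 in AdCKO libraries, with Dcn the most abundant. Of these markers, 4 (Col1a1, Col1a2, Col3a1 and Dcn) are also on the pathway lists above, and the other 8 summed to 345 to 498 and to 1375 to 2274, with 6 of 7 tested higher. Of 12 macrophage markers 11 were higher, and the sum went from 516 to 1387 in Control, highest in replicate 3, to 6366 to 8490 in AdCKO, led by Lyz2. For platelets, which store both thrombospondin 1 and TGF-beta 1, 1 of 7 markers was tested and higher, Pf4 (56.9 ± 17.8 and 168 ± 41.9). The summed level of the list, 58.5 to 104 in Control and 129 to 233 in AdCKO libraries, is mostly Pf4. The other 6 platelet markers summed to 18.7 to 21.7 and to 22.1 to 23.3, with ratios of AdCKO to Control means from 0.787 for Gp1ba to 1.40 for Itga2b. Endothelial markers, with Cdh5 the most abundant, were higher in 4 of 9, with sums of 1753 to 2156 and 1843 to 2565. That is 44.4% called, below the 53.6% of all tested genes. Adipocyte markers, with Fabp4 the most abundant, were higher in 1 and lower in 7 of 10, with sums of 178768 to 214534 and 123493 to 144311. Brown adipocyte markers, led by Ucp1, were lower in 6 of 9, and their sum fell from between 63158 and 86081 to between 19071 and 40031. No marker was at 0, a value that the table does not hold.

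Within AdCKO iBAT the fibroblast and macrophage sums and the members did not keep one order. Replicates 4 and 2 had nearly the same macrophage sum, 8490 and 8464, but the highest and the second lowest Thbs1, at 60.0 and 26.3. Replicate 5 had the lowest Thbs1 and the lowest sums of fibroblast and macrophage markers, but the highest Smad3. The platelet sum, mostly Pf4, was 222, 199, 171, 233 and 129 in AdCKO libraries 1 to 5. Like Thbs1, it was highest in replicate 4, then in replicate 1, and lowest in replicate 5. Replicates 2 and 3 were in the opposite order. In Control iBAT, replicate 3 had the highest Thbs1, Tgfb3 and Inhbb together with the highest fibroblast, macrophage and platelet sums. The part of these cells in the levels of the 9 genes was not tested.

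**Figure D5:**
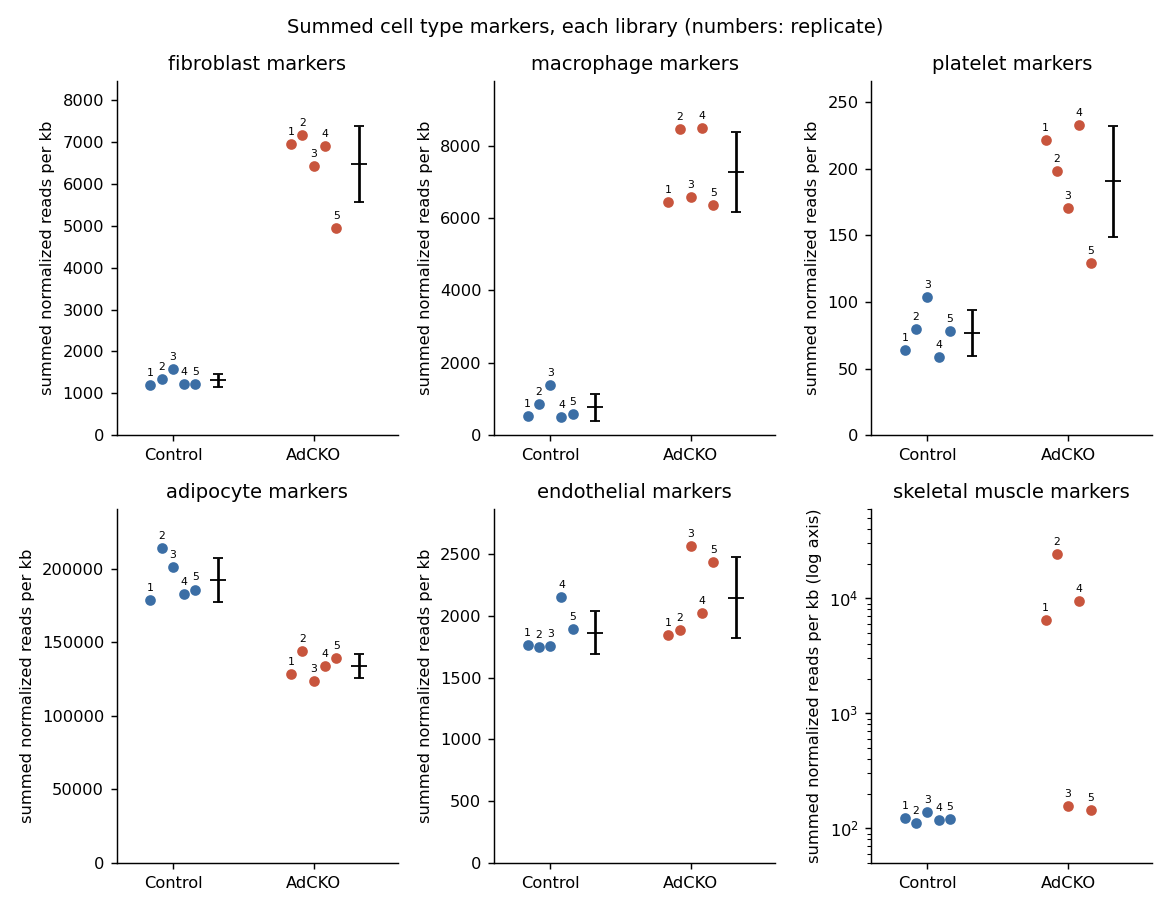
Summed normalized reads per kb of 6 lists of cell type markers in each library (points, numbered by replicate), with the mean and SD of each group in black (n = 5) except for skeletal muscle, which is on a log axis. With the authors' normalization, fibroblast and macrophage sums are higher and adipocyte sums lower in every AdCKO library than in any Control library. The platelet sum, which is mostly Pf4, is also higher. Endothelial sums overlap, and skeletal muscle sums are high in AdCKO replicates 1, 2 and 4.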

How the data were processed

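The authors sequenced polyadenylated RNA and mapped it to mm9 (STAR). Reads in exons were counted by iRNA-seq, and DESeq2 was used by the authors to normalize the counts. The signal values they deposited are normalized reads per kb of counted exon. They are not counts, none is 0 and the smallest is 0.0532. What else was done to them is not given in the sources used here. The median SD was 4.78% of the mean for Control genes below 1, 8.46% from 1 to 3, 13% from 3 to 10 and 12.9% from 10 to 30. Read counting alone would give more spread at lower levels, so low values appear drawn together between libraries, most of all below 3. SDs and p-values of low genes may be too small. The authors' deposited fold changes, adjusted p-values and lists of called genes were not used. Depth before normalization is unknown, so precision is the spread between 5 mice.

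A pseudocount of 1 was added before log2, which understates the change of low genes. Genes with a mean of at least 10 in either group, the minimum of the study's methods, entered a two-sided limma-trend fit without covariates (limma 3.58.1, R 4.3.3), with p-values adjusted by Benjamini-Hochberg over 11244 genes and a threshold of 0.01. DESeq2 needs counts and was not run. The fit was checked on simulated data. Ratios were tested with an exact two-sided permutation test at an adjusted p of 0.05. The members and lists were chosen with earlier results of these data known. Named genes are the members, the 2 called genes with the smallest p in each direction of each list, the most abundant gene of each marker list, Crls1, and for each member the 2 genes with the nearest pattern. Ctgf, Pmepa1, Skil, Smad2 and Id1 to Id3 were added after seeing values.

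No member shares annotated exon bases with another gene (GENCODE vM1, mm9). Alternatives were other pseudocounts, filters, scalings, limma settings and thresholds, a replicate block, each library left out, and, chosen after seeing the data, leaving out 3 AdCKO libraries high in muscle markers. Figures were drawn with matplotlib 3.10.9.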

Additional observations from a re-analysis of the deposited data

How the results depend on the processing

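Thbs1, Tgfb1 and Smad3 kept their direction and their call under every alternative run. Scaled to equal totals, AdCKO libraries had 6811 genes higher and 1098 lower (86.1% and 13.9% of calls, against 47.7% and 52.3%), 7 members were higher and 0 lower, and 3 genes of the pathway lists were lower in place of 7. Log2 fold changes were then 0.75 for Tgfbr1 and 1.05 for Inhbb, both called, 0.56 for Smad7, now called, and -0.43 for Tgfbr2, no longer called. With quantile normalization Tgfb3 was at 0.29 and not called, Smad7 turned to -0.19, and the ratios of Smad7 to Smad3, Tgfb2 to Tgfb1 and Tgfb3 to Tgfb1 passed at -0.88, -0.82 and -0.73. With array quality weights Tgfbr1 (0.34) and Inhbb (0.71) were called and Smad7 turned to -0.014. At an adjusted p under 0.05 Tgfbr1 (0.28) and Inhbb (0.63) were called. The cause of these shifts was not tested.

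With 1 library left out, log2 fold changes ran from 0.23 to 0.33 for Tgfbr1, from -0.040 (without Control replicate 1) to 0.20 for Smad7 and from 0.54 to 0.74 for Inhbb, which had no value without AdCKO replicate 2 or 5 because its mean dropped under the minimum. The log2 ratio of Smad7 to Smad3 ran from -0.85 (without Control replicate 1, adjusted p 0.0159, past 0.05) to -0.56. Without the 3 AdCKO libraries high in muscle markers, 4 pathway genes were lower. Tgfb3 was then at 0.64 and not called, and Inhbb was under the minimum. The log2 difference in the ratio of Tgfbr1 to Tgfbr2 was 1.14, with an adjusted p of 0.19 in the permutation test. With 5 against 2 libraries, no ratio could pass after adjustment unless all 4 ratios reached the smallest possible p.

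Same-numbered libraries did not deviate together (correlations from -0.268 to 0.098, and 0 of 5 best with their own number). The numbers were used only as names, and 5 correlations are too few to settle whether mice were paired. With a replicate block, 2592 genes were higher and 2838 lower and 4 members were higher and 1 lower. Depth is unknown, so it could not be weighed.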

Other observations

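Other marker lists gave the following values, beside the 25.6% of all tested genes that were higher and 28.0% lower. Of 8 mural cell markers 5 were higher and 3 lower, with Des, the most abundant over all libraries, at 225.2 ± 11.6 and 807.7 ± 331.1 normalized reads per kb (SD, n = 5 each). Skeletal muscle also expresses Des, which was at 793, 1357 and 775 in the 3 AdCKO libraries high in muscle markers and at 625 and 488 in the other two, and the part of muscle in its level was not tested. Among them were Rgs5, a pericyte gene that was the most abundant of the list in Control iBAT and was lower (log2 fold change -0.89), and Myh11, a smooth muscle gene that was higher (1.09). Of 5 Schwann cell markers 4 were higher, while S100b, which brown adipocytes also make, fell from 486.3 ± 103.7 to 187.2 ± 62.5 (-1.41, limma adjusted p = 6.15e-05). Of 7 tested lymphoid markers 2 were higher, Cd4 and Nkg7, or 28.6%, near the 25.6% of all tested genes. The sum of the whole list was 350 in AdCKO replicate 1 against 80.3 to 126 in the other AdCKO libraries and 59.9 to 103 in Control. Of 11 skeletal muscle markers 1, Acta1, was called higher. The only mesothelial marker in the table, Krt19, was near the lowest values. Rgs5, Myh11 and Cd4 were picked after their values were seen.

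The spread between mice also differed. As a share of the mean, the SD was smaller in AdCKO than in Control libraries for 6 of the 9 genes, for example 5.78% against 19.3% for Tgfb1 and 9.5% against 28.0% for Tgfbr2, and larger for Thbs1 (43.3% against 19.3%), Smad3 (15.9% against 6.54%) and Inhbb. These differences in spread were not tested.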
